A study of Saccharomyces cerevisiae with 12 samples.

Results

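Transcripts of 10 enzymes of the citric acid cycle were followed in budding yeast, Saccharomyces cerevisiae, before and after a pulse of glucose. The genes were CIT1, ACO1, IDH1, IDH2, KGD1, KGD2, LPD1, LSC1, FUM1 and MDH1, chosen by name from the pathway. All 10 were measured, each by 1 probe set, among 5449 genes tested. Both strains were of the CEN.PK laboratory background and grew on limiting ethanol in chemostats, continuous cultures in which the feed sets the growth rate, here at a dilution rate of 0.1 per h. The null strain (KOY.VW101P) lacks every known hexose transporter, the membrane proteins through which yeast takes up glucose. The isogenic reference strain (KOY.PK2-1C83P) has them. The 4 groups were the null strain 20 min after the pulse, the null strain at steady state (0 min), the reference strain 20 min after the pulse and the reference strain at 0 min, each with 3 arrays from replicate cultures. The study asked which expression changes follow when glucose is merely present, and each arm rests on 1 named strain.

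The citric acid cycle runs in the mitochondrial matrix, where it oxidizes acetyl-CoA to carbon dioxide and passes electrons to the respiratory chain. Yeast grown on ethanol respires and makes acetyl-CoA from ethanol, whereas glucose at high levels represses respiration and favours fermentation. The cycle also supplies 2-oxoglutarate and oxaloacetate for amino acid synthesis, and its early steps, up to isocitrate dehydrogenase, have long been known to be controlled apart from the later ones.

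The strain and time labels were checked before the cycle genes were compared. Of 15 hexose transporter genes measured, 0 exceeded the floor of its array by more than 0.25 (log2) on any of the 6 null arrays, while 6 did so on every reference array. The time labels of replicate 2 went against those of replicates 1 and 3. On the reference array labelled 20 min replicate 2 the 10 cycle genes had log2 intensities of 13.70 (IDH2) to 15.17 (ACO1), against 10.05 (KGD2) to 12.83 (ACO1) on the array labelled 0 min replicate 2. The means of replicates 1 and 3 ran the other way, with none above 12.90 (ACO1) at 20 min, against 13.56 (IDH2) to 15.31 (ACO1) at 0 min. In the null strain the replicate 2 differences of the cycle genes, -0.37 (KGD2) to 0.61 (IDH2), were too small to show this. MIG2, a gene outside the 10 that glucose induces, had 3.43 on the null array labelled 20 min replicate 2, against 13.59 on that labelled 0 min. On the reference arrays of replicate 2 it had 2.07 and 10.96. In replicates 1 and 3 MIG2 was higher at 20 min in both strains. With all 12 arrays as labelled, limma called 0 of the 10 genes in each of the 5 comparisons, and 0 had an unadjusted p under 0.05. The comparisons below use replicates 1 and 3, a choice made with earlier results of these data known, for which the cycle genes are no separate evidence. These replicates leave 4 residual degrees of freedom from 2 arrays a group, and the labels of these 8 arrays alone set the direction of each change. No array was moved to another group. Replicate 2 is given separately for the cycle genes, MIG2 and OAC1, and directions stated for other genes rest on replicates 1 and 3 alone. The unit throughout is the quantile-normalized log2 intensity, on a scale from 2.06 to 15.84 on which the cycle genes lay between 9.96 and 15.43. Falls had more room to be seen than rises. The room for a rise differed by gene, as null strain means at 0 min ran from 13.63 (IDH2) to 15.06 (CIT1). Array values are relative to the RNA labelled, so fewer copies of a transcript and a changed amount of total RNA per cell cannot be told apart.

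In the reference strain all 10 cycle genes fell within 20 min of the pulse. The median log2 change was -3.08, against 0.13 over all 5449 genes, and 33.0% of all genes tested were called lower by limma at an adjusted p under 0.05. KGD1 had the largest change, -3.99 or 15.9-fold lower, and IDH2 the smallest, -0.85 or 1.8-fold lower. For each of the 10 genes both arrays at 20 min lay below both arrays at 0 min, as did 39.1% of all genes. The smallest gap between the groups was 0.75, for IDH2, and the largest 3.77, for KGD1. Relative to the median of all genes, the median change of the cycle genes was -3.21, and -2.82 with the values as deposited. Centring arrays on their medians shifts all genes of an array alike, so it must give the same -2.82 and is no separate check.

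**Figure D1:**
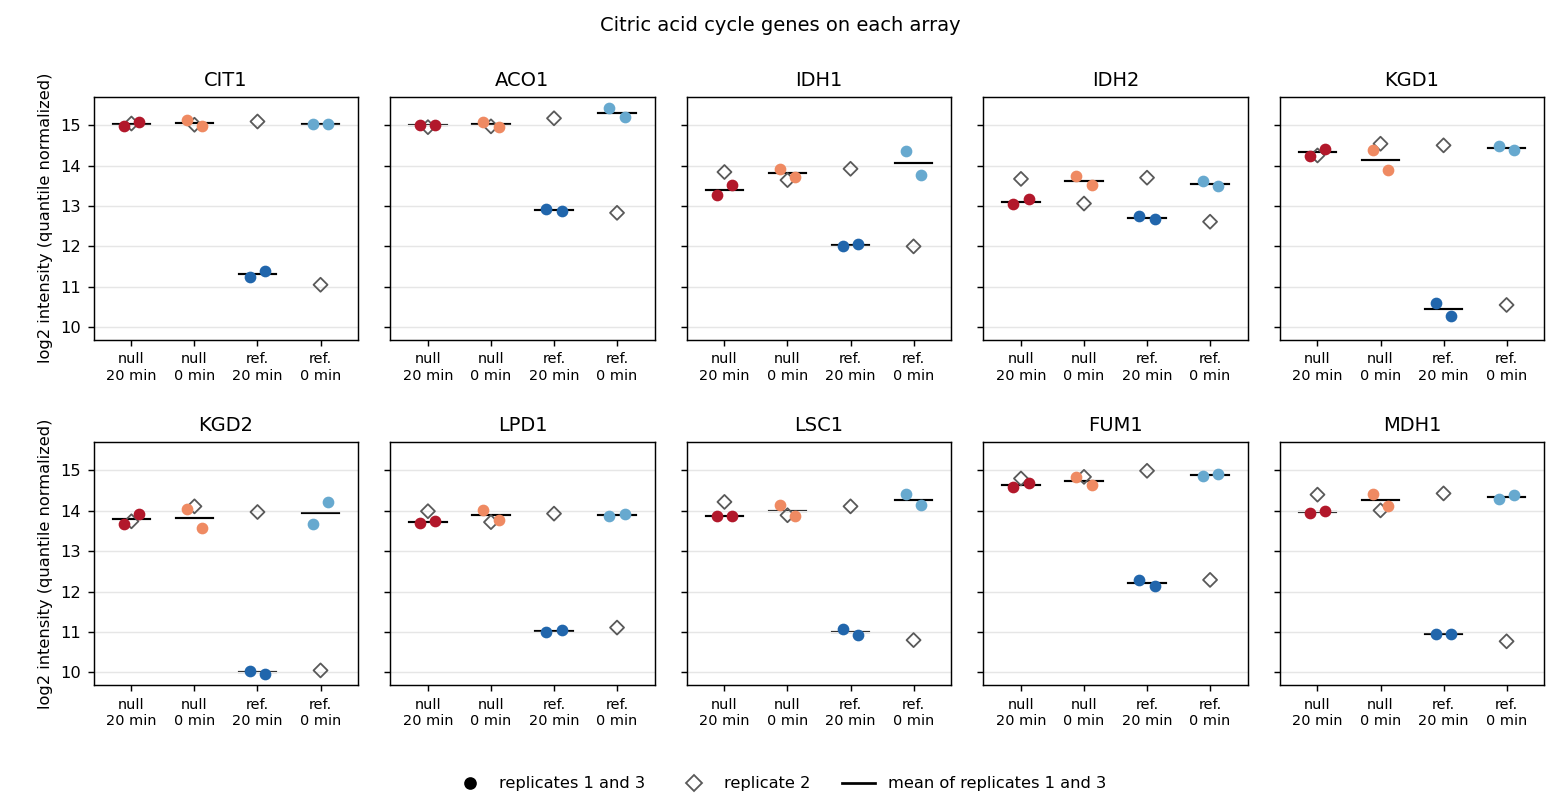
Quantile-normalized log2 intensity (vertical axis) of the 10 cycle genes in the null strain at 20 and 0 min and the reference strain at 20 and 0 min. Filled circles are replicates 1 and 3, black lines their means and open diamonds replicate 2; in replicates 1 and 3 the reference strain at 20 min lay below the other 3 groups for every gene, while the replicate 2 diamonds of the reference strain sit at the level of the opposite time.

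Carbon enters the cycle through CIT1 (YNR001C), the mitochondrial citrate synthase, which joins acetyl-CoA to oxaloacetate. CIT1 had 11.25 and 11.39 at 20 min in the reference strain, against 15.02 and 15.02 at 0 min. The groups were far apart, and 7.68% of the signal at 0 min was left at 20 min (log2 change -3.70, SE 0.10, limma adjusted p = 1.13e-05). ACO1 (YLR304C) encodes aconitase, the iron-sulfur enzyme that turns citrate into isocitrate. It had 12.93 and 12.87 at 20 min, against 15.43 and 15.19 at 0 min, and fell by 2.40 (SE 0.11, adjusted p = 3.08e-05). Its arrays at 0 min were the closest of any cycle gene to the top of the scale.

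Isocitrate dehydrogenase, the NAD-linked enzyme of the third step, is built from the subunits encoded by IDH1 (YNL037C) and IDH2 (YOR136W), and these genes had the smallest falls of the 10. IDH1 had 12.02 and 12.07 at 20 min in the reference strain, against 14.37 and 13.76 at 0 min. It fell by 2.02 (SE 0.22, limma adjusted p = 0.000577), and its arrays at 0 min lay further apart than those of any other cycle gene in this group. IDH2 had 12.75 and 12.67 at 20 min, against 13.62 and 13.49 at 0 min, so that 55.6% of its signal was left. IDH2 fell by 0.85 (SE 0.12, adjusted p = 0.00139), a call that held on the values as deposited but not with arrays centred on their medians, where it was -0.31 (adjusted p = 0.116). The 95% interval of the change was -2.59 to -1.46 for IDH1 and -1.14 to -0.55 for IDH2, and the difference between these subunit genes was not tested.

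The 2-oxoglutarate dehydrogenase complex, which makes succinyl-CoA, has 3 kinds of subunit. KGD1 (YIL125W) encodes the decarboxylating subunit and had 10.61 and 10.27 at 20 min in the reference strain, against 14.48 and 14.38 at 0 min. KGD2 (YDR148C), for the succinyl-transferring subunit, had 10.04 and 9.96 at 20 min, against 13.68 and 14.23 at 0 min. These were the largest changes of the 10 genes, -3.99 (SE 0.20, limma adjusted p = 3.91e-05) for KGD1 and -3.95 (SE 0.24, adjusted p = 7.26e-05) for KGD2. The dihydrolipoamide dehydrogenase encoded by LPD1 (YFL018C) also serves pyruvate dehydrogenase and glycine cleavage. LPD1 had 10.99 and 11.05 at 20 min, against 13.88 and 13.92 at 0 min, and fell by 2.88 (SE 0.11, adjusted p = 1.98e-05) with 13.6% of the signal left, where KGD1 kept 6.29% and KGD2 6.45%.

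The later steps regenerate oxaloacetate. LSC1 (YOR142W), the alpha subunit of succinyl-CoA ligase, had 11.08 and 10.93 at 20 min in the reference strain, against 14.41 and 14.14 at 0 min, and fell by 3.28 (SE 0.15, limma adjusted p = 2.78e-05). FUM1 (YPL262W) encodes fumarase, which is found both in mitochondria and in the cytosol. FUM1 had 12.29 and 12.15 at 20 min, against 14.87 and 14.90 at 0 min, and fell by 2.66 (SE 0.11, adjusted p = 2.31e-05). MDH1 (YKL085W), the mitochondrial malate dehydrogenase that closes the cycle, had 10.95 and 10.96 at 20 min, against 14.28 and 14.40 at 0 min. It fell by 3.39 (SE 0.12, adjusted p = 1.66e-05), leaving 9.54% of the signal. The groups of all 3 genes were separated by at least 2.58.

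The order of the falls in the reference strain was KGD1, KGD2, CIT1, MDH1, LSC1, LPD1, FUM1, ACO1, IDH1 and IDH2. Neighbours in this order had overlapping 95% intervals, apart from IDH1 and IDH2. None of the 10 genes was among the 100 largest falls of all genes, and 6 were among the 500 largest. KGD1 ranked 255 of 5449 and IDH2 ranked 1488. Replicate 2 of the reference strain gave differences of the same order of size with the opposite sign, with the array labelled 20 min higher than that labelled 0 min for all 10 genes, by 1.10 (IDH2) to 4.04 (CIT1). For these single arrays the share of all genes was not taken.

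In the null strain 9 of the 10 genes did not pass the test, and 1 gene, IDH2, was called lower. Of all genes, 14.7% were called lower in this strain and 12.9% higher. The median log2 change of the cycle genes was -0.11, against 0.04 over all genes. CIT1 had 14.97 and 15.07 at 20 min in the null strain, against 15.13 and 14.99 at 0 min, so its groups overlapped, with a change of -0.04 (95% interval -0.29 to 0.21). The 4 null arrays of ACO1 lay between 14.95 and 15.09, with those at 20 min inside the range of those at 0 min and a change of -0.02 (-0.30 to 0.26). KGD1, the gene with the largest fall in the reference strain, had 14.24 and 14.42 at 20 min, against 14.38 and 13.89 at 0 min, and its change of 0.19 had an interval of -0.32 to 0.70. These intervals bound the size of any change in the null strain but do not show that the levels were equal.

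KGD2, LSC1 and FUM1 had overlapping groups in the null strain, and LPD1 and MDH1 did not. KGD2 had 13.68 and 13.92 at 20 min, against 14.05 and 13.57 at 0 min (change -0.01, 95% interval -0.62 to 0.60). LPD1 had 13.71 and 13.74 at 20 min, against 14.02 and 13.76 (change -0.17, -0.45 to 0.11), and LSC1 had 13.88 and 13.88, against 14.15 and 13.86 (change -0.13, -0.50 to 0.24). FUM1 had 14.58 and 14.70 at 20 min, against 14.84 and 14.64 (change -0.10, -0.37 to 0.17). None of these 4 passed the limma threshold. MDH1 averaged 13.97 at 20 min, against 14.26 at 0 min, without overlap, and its change of -0.30 did not pass (adjusted p = 0.131).

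Both isocitrate dehydrogenase genes were lower at 20 min on both null arrays. IDH2 had 13.05 and 13.17 at 20 min in the null strain, against 13.75 and 13.51 at 0 min, and fell by 0.52 (SE 0.12, limma adjusted p = 0.0289). IDH1 had 13.26 and 13.52 at 20 min, against 13.91 and 13.71 at 0 min, and its change of -0.42 (SE 0.22) did not pass (adjusted p = 0.221). The call for IDH2 was not stable. With arrays centred on their medians the change was -0.26 (adjusted p = 0.254), with the 4 null arrays alone it had an adjusted p of 0.0954, and where leaving out a single array ended the call the changes were -0.58 to -0.40 with adjusted p from 0.0575 to 0.113. These arrays were replicates 1 and 3 of the reference strain at 20 min, replicate 1 of the null strain at 0 min and replicates 1 and 3 of the null strain at 20 min. In all, 4 of the 10 genes (IDH1, IDH2, LPD1 and MDH1) had both null arrays at 20 min below both at 0 min, against 30.1% of all genes. In replicate 2 of the null strain, the array labelled 20 min was higher than that labelled 0 min for 6 of the 10 genes, and IDH2 had the largest such difference, 0.61. The share of all genes was not taken for replicate 2, so this count is no result about the cycle genes.

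**Figure D2:**
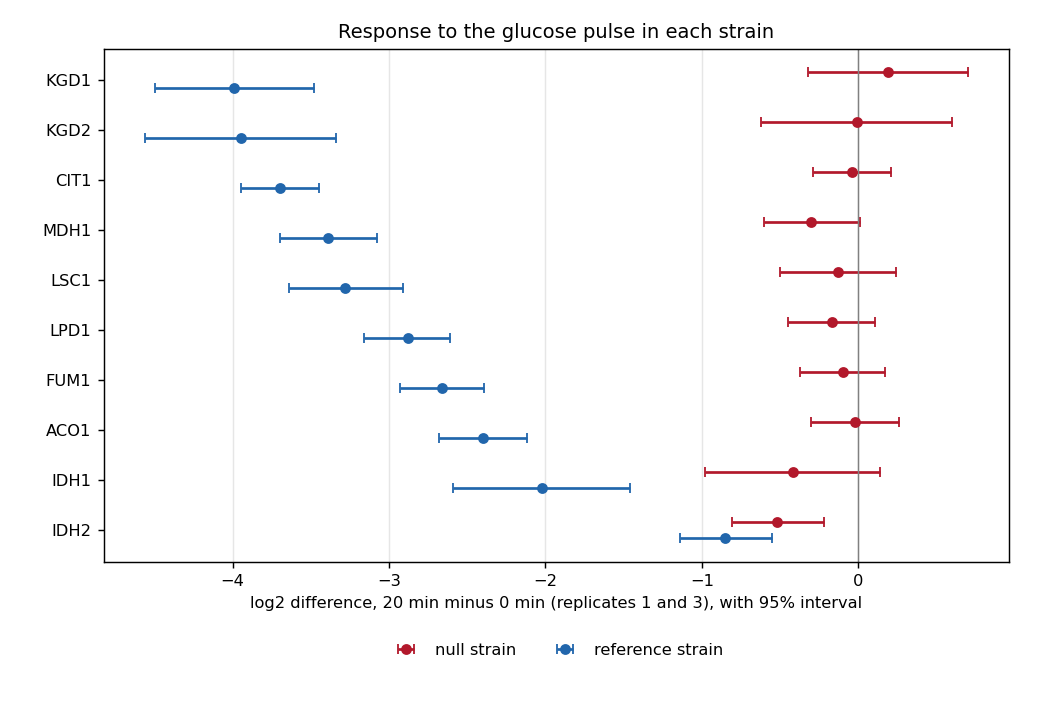
Log2 difference of 20 min minus 0 min (horizontal axis) for each cycle gene, null strain in red above the reference strain in blue, with 95% intervals from limma on replicates 1 and 3. The blue points run from -3.99 (KGD1) to -0.85 (IDH2), while the red points lie between -0.52 (IDH2) and 0.19 (KGD1).

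The difference between the responses of the strains was tested directly. It passed for 9 of the 10 cycle genes, all with a positive value, since the fall was larger in the reference strain. Of all genes, 32.4% were called in this direction and 33.9% in the other. The largest differences were 4.18 for KGD1 (SE 0.29, limma adjusted p = 0.000158) and 3.94 for KGD2 (SE 0.34, adjusted p = 0.000314). CIT1 differed by 3.66 (SE 0.14, adjusted p = 5.1e-05). IDH1 had the smallest of the 9 called differences, 1.60 (SE 0.32, adjusted p = 0.0066). IDH2 did not pass, at 0.33 with a 95% interval of -0.08 to 0.75 (adjusted p = 0.13), which leaves room for differences up to the upper bound. The median over the 10 genes was 2.90, against -0.04 over all genes.

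Before the pulse, at 0 min, limma called 0 of the 10 genes between the null and the reference strain, and 1, ACO1, had an unadjusted p under 0.05 (log2 difference -0.29, adjusted p = 0.312). Of all genes, 1.28% were called at this time. The differences ran from -0.30 for KGD1 to 0.07 for IDH2. At 20 min all 10 were higher in the null strain, with a median log2 difference of 2.79 against -0.04 over all genes, and 36.5% of all genes were called higher. CIT1 was 13-fold higher in the null strain at 20 min (log2 difference 3.70, SE 0.10, limma adjusted p = 7.26e-06), KGD1 14.8-fold and MDH1 8.09-fold. IDH2 was 1.32-fold higher (adjusted p = 0.0232), and this call was lost with arrays centred on their medians (log2 difference 0.29, adjusted p = 0.135) and without replicate 1 or 3 of the reference strain at 20 min or replicate 3 of the null strain at 20 min (0.34 to 0.44, adjusted p = 0.0644 to 0.102). This comparison shares its arrays with those over time and is no separate evidence for them.

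The genes of the cycle outside these 10 were SDH1 to SDH4, for the subunits of succinate dehydrogenase, and LSC2, for the beta subunit of succinyl-CoA ligase. All 5 fell in the reference strain, against 33.0% of all genes called lower there, and their median change was -3.80. SDH3, a membrane anchor subunit, had 10.53 and 10.38 at 20 min, against 14.90 and 14.52 at 0 min, and fell by 4.25. The changes were -3.80 for SDH1, the flavoprotein subunit, -3.96 for the iron-sulfur subunit gene SDH2 and -3.66 for the anchor gene SDH4. LSC2 had 10.85 and 10.79 at 20 min, against 13.57 and 13.42 at 0 min, and fell by 2.68, where its partner LSC1 fell by 3.28. In the null strain 0 of these 5 passed by limma, with changes from -0.02 (SDH4) to 0.18 (LSC2). The difference between the responses passed for all 5 with a positive value, against 32.4% of all genes called in that direction. Of 11 genes for accessory subunits and for assembly factors of succinate dehydrogenase, lipoic acid attachment and iron-sulfur clusters, 8 fell, ISA1, a factor for iron-sulfur clusters, rose, and 2 (LIP5 and AIM22) did not pass in the reference strain. Over all genes 33.0% were called lower and 39.3% higher there. KGD4, a small subunit of the 2-oxoglutarate dehydrogenase complex, fell by 4.24. In the null strain 5 of these 11 (SDH5, SDH6, LIP2, AIM22 and IBA57, named after their values were seen, as were the others of this list) rose, by 0.49 (LIP2) to 1.11 (AIM22), and 0 fell. Over all genes 12.9% were called higher in this strain. The null strain count was 0 with the values as deposited, 3 with arrays centred on their medians and 3 with the replicate block, where SDH5 (adjusted p = 0.0618) and SDH6 (adjusted p = 0.0781) were not called. SDH5, SDH6, LIP2 and IBA57 were also not called in the null strain when any 1 of its 4 arrays was left out. In the reference strain AIM22 fell by 1.75 with the values as deposited and by 1.26 with arrays centred on their medians, and ISA1 (0.38) was not called without replicate 3 at 0 min or replicate 1 at 20 min of the reference strain (adjusted p = 0.0802 and 0.0991).

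Isozymes that carry out the same reactions in other compartments or pathways were compared next. Of 11 measured, 10 fell in the reference strain and 1, the fumarate reductase gene OSM1, did not pass (-0.20). Over all genes 33.0% were called lower there. OSM1 fell by 0.62 with the values as deposited (limma adjusted p = 0.0139) and by 0.36 without replicate 1 of the reference strain at 0 min (adjusted p = 0.038). The 11 isozymes had a median change of -4.21, against -3.08 for the 10 cycle genes, and this difference was not tested. MDH2, the cytosolic malate dehydrogenase of gluconeogenesis, had 10.95 and 11.07 at 20 min, against 15.78 and 15.68 at 0 min, and fell by 4.72. The peroxisomal MDH3 fell by 3.19, and MDH1 in the mitochondrion lay between these with a change of -3.39. CIT2, the peroxisomal citrate synthase of the glyoxylate cycle, fell by 3.63, close to CIT1, and the minor mitochondrial CIT3 fell by 5.51, to 8.71 and 8.72 at 20 min, against 14.31 and 14.14 at 0 min.

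The NADP-linked isocitrate dehydrogenases covered a wide range. IDP3, the peroxisomal enzyme needed for oxidation of some unsaturated fatty acids, had 5.79 and 6.51 at 20 min in the reference strain, against 12.30 and 12.58 at 0 min, and fell by 6.28. IDP2, the cytosolic enzyme, fell by 4.67. The mitochondrial IDP1 had 12.01 and 12.32 at 20 min, against 12.98 and 12.93 at 0 min, and it fell by 0.79, close in size to IDH2. IDP3 was the isozyme that rose in the null strain, by 1.24 (SE 0.25, limma adjusted p = 0.0207), with 13.35 and 13.18 at 20 min, against 12.05 and 11.98 at 0 min. Leaving out any 1 of these 4 arrays kept a change of 1.16 to 1.33 but ended the call (adjusted p = 0.0669 to 0.087). With arrays centred on their medians the call for IDP1 in the reference strain was lost (-0.32, adjusted p = 0.169), as it was for IDH2. In the null strain IDP1 had a change of -0.47 (adjusted p = 0.0541) and, like IDH2, no difference between the responses that passed (0.32, adjusted p = 0.199). SHH3 and SHH4, paralogs of SDH3 and SDH4, had changes of -4.60 and -4.21 in the reference strain, and FRD1, the cytosolic fumarate reductase, fell by 1.30. The difference between the responses passed with a positive value for 10 of the 11 isozymes, against 32.4% of all genes called in that direction. The smallest that passed was OSM1 at 0.50 (adjusted p = 0.0488). The call for OSM1 was lost with arrays centred on their medians, with the replicate block (adjusted p = 0.076), with dim genes left out, with a robust variance trend and when any 1 of the arrays other than replicate 1 of the reference strain at 0 min was left out (0.35 to 0.57 over these settings, adjusted p = 0.0676 to 0.138). Whether the probe set of a gene also reads a paralog was not tested.

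**Figure D3:**
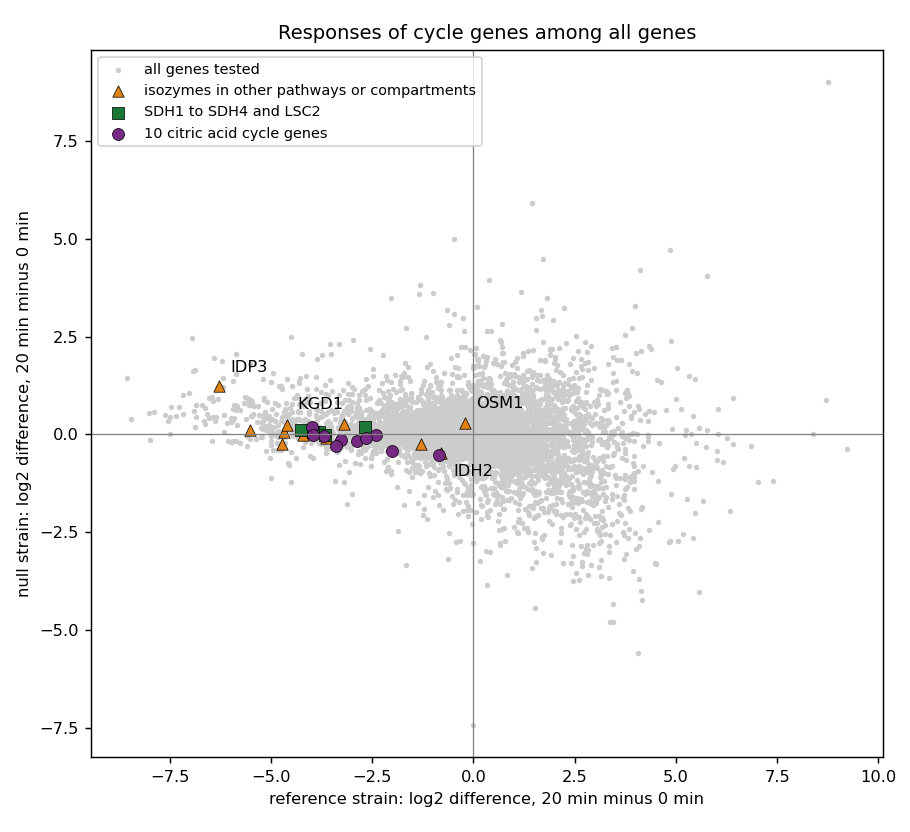
Log2 change from 0 to 20 min in the null strain (vertical axis) against that in the reference strain (horizontal axis) for all 5449 genes (grey), the 10 cycle genes (circles), SDH1 to SDH4 and LSC2 (squares) and the 11 isozymes (triangles). The cycle genes spread along the horizontal axis from -3.99 to -0.85 and stay between -0.52 and 0.19 on the vertical axis, with IDH2 at the right end; IDP3 is the isozyme called higher in the null strain.

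Enzymes and carriers that feed the cycle or export its intermediates moved both ways. Of 23 genes, 17 fell, 4 rose and 2 (PYC2 and ODC2) did not pass in the reference strain, where 33.0% of all genes were called lower and 39.3% higher. Of the 17, AGC1 and YHM2, named after their values were seen, had unstable calls. AGC1 was not called when any 1 of the 4 reference arrays was left out (limma adjusted p = 0.0576 to 0.121). YHM2 was not called with the values as deposited (-0.41, adjusted p = 0.0686), with array weights or with dim genes left out. It was also not called when any 1 of the 4 reference arrays was left out (-0.49 to -0.33, adjusted p = 0.068 to 0.183). With arrays centred on their medians its change was 0.08. SFC1, the mitochondrial succinate-fumarate carrier used in growth on ethanol, had 9.44 and 8.92 at 20 min, against 15.55 and 14.94 at 0 min, and fell by 6.07. MPC3, a subunit of the mitochondrial pyruvate carrier, fell by 5.02. PKP2, a kinase that inhibits pyruvate dehydrogenase, had 6.60 and 4.89 at 20 min, against 11.20 and 11.15 at 0 min, and fell by 5.43 with an SE of 0.53. The 4 genes that rose were MPC2, CTP1, MAE1 and OAC1, named here after their values were seen apart from OAC1. MPC2, another subunit of the pyruvate carrier, rose by 0.45 in the reference strain, a call that ended when any 1 of the 4 reference arrays was left out (adjusted p = 0.0653 to 0.0806).

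The other 3 had opposite directions in the strains. OAC1, the mitochondrial oxaloacetate carrier, had 7.43 and 8.04 at 20 min in the null strain, against 11.09 and 11.85 at 0 min, while in the reference strain it had 14.10 and 14.17 at 20 min, against 11.81 and 11.55 at 0 min. It fell by 3.74 in the null strain (limma adjusted p = 0.00245) and rose by 2.46 in the reference strain (adjusted p = 0.00106), and the difference of -6.19 between the responses passed (adjusted p = 0.000181). In replicate 2 as labelled, OAC1 ran the other way. It had 11.45 at 20 min and 8.08 at 0 min in the null strain, and 11.76 and 14.14 in the reference strain. MAE1, the mitochondrial malic enzyme that makes pyruvate from malate, fell by 3.04 in the null strain and rose by 2.72 in the reference strain. Its null arrays at 20 min had 8.17 and 9.28, and the fall was not called with the 4 null arrays alone (limma adjusted p = 0.0569). CTP1, the citrate carrier, fell by 1.17 in the null strain and rose by 2.85 in the reference strain. The fall of CTP1 was not called when any 1 of the 8 arrays apart from replicate 3 of the null strain at 20 min was left out (-1.38 to -0.82, adjusted p = 0.0511 to 0.115). Of the 23 genes, 5 fell, 2 rose and 16 did not pass in the null strain, against 14.7% of all genes called lower and 12.9% called higher. The others that fell there were DIC1 (-0.44), a dicarboxylate carrier, and YHM2 (-1.40), a citrate and oxoglutarate carrier, and those that rose were MPC1 (0.87) and PDX1 (0.39), all named after their values were seen. The calls for DIC1 and PDX1 were not stable. DIC1 was not called with the values as deposited (-0.48, adjusted p = 0.0685), with arrays centred on their medians (-0.23, adjusted p = 0.283), with array weights, with dim genes left out, with the 4 null arrays alone or without replicate 3 of the null strain at 0 min or either of its arrays at 20 min. PDX1 was not called with the values as deposited (0.30, adjusted p = 0.166), with the replicate block (0.39, adjusted p = 0.0713), with dim genes left out, with a robust variance trend, with the 4 null arrays alone or when any 1 of the 8 arrays apart from replicate 3 of the null strain at 0 min was left out.

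**Figure D4:**
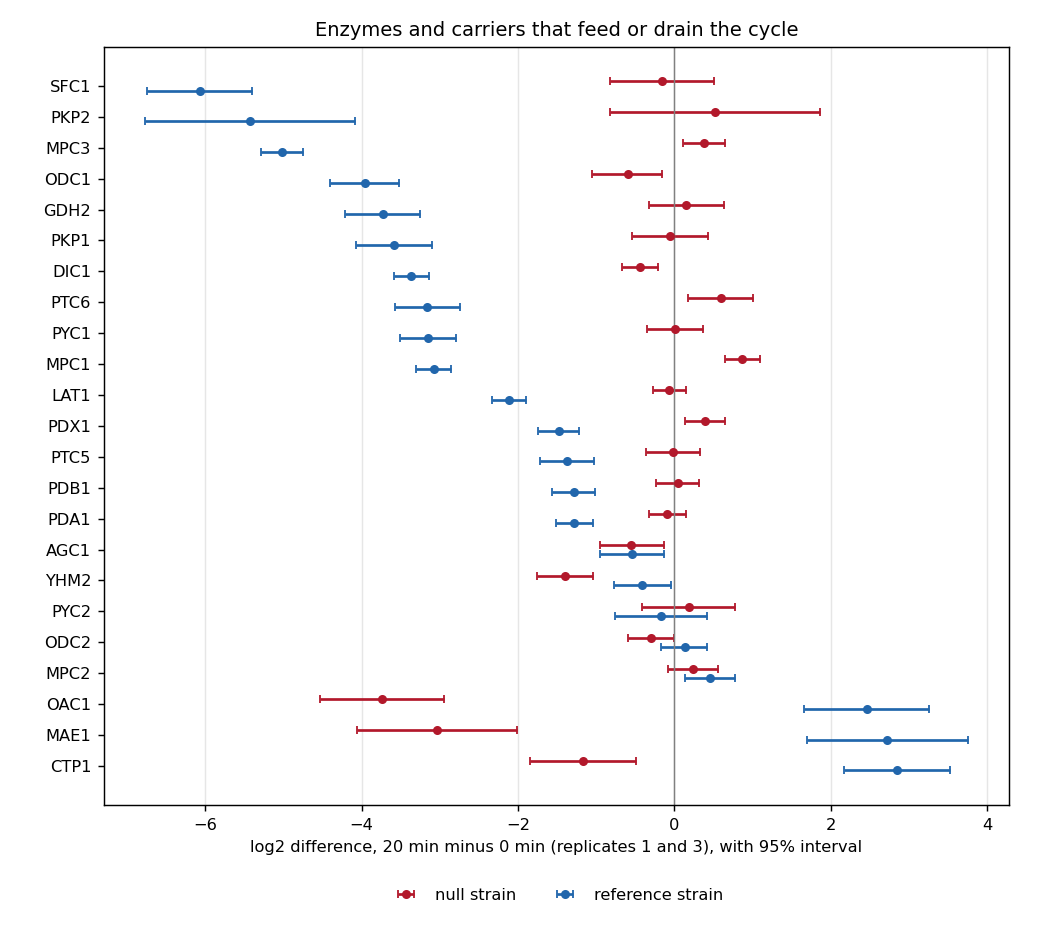
Log2 difference of 20 min minus 0 min (horizontal axis) for 23 enzymes and carriers around the cycle, null strain in red above the reference strain in blue, with 95% intervals. SFC1 has the largest fall in the reference strain at -6.07, and OAC1, MAE1 and CTP1 at the bottom lie on opposite sides of 0, between -3.74 and -1.17 in the null strain and between 2.46 and 2.85 in the reference strain.

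Among 16 regulators of respiratory genes, 7 fell, 5 (MIG1, MIG2, MIG3, RTG1 and MKS1) rose and 4 (HAP1, HAP3, RTG2 and RTG3) did not pass in the reference strain, against 33.0% of all genes called lower and 39.3% called higher there. The count that fell was 5 with arrays centred on their medians, where HAP2 and HAP4 were not called. It was also 5 with the 4 reference arrays alone, where HAP2 and HAP5 were not called. Of the same 16, 6 rose and 0 fell in the null strain, or 3 and 2 with the values as deposited. Over all genes 12.9% were called higher and 14.7% lower in this strain. Of the 6, HAP2 was not called when any 1 of the 8 arrays was left out. HAP1 was not called without replicate 3 of the null strain at 0 min or replicate 1 at 20 min. RTG1 (1.30) was not called when any 1 of the 8 arrays apart from replicate 1 of the null strain at 0 min was left out. With the values as deposited RTG1 changed by 0.16 in the null strain (limma adjusted p = 0.818). HAP1, HAP2 and RTG1 were also not called there with the 4 null arrays alone. The difference between the responses passed with a positive value for 6 of the 16, near the 32.4% of all genes called in that direction. CAT8, the activator of genes for gluconeogenesis and ethanol use, had 3.49 and 3.55 at 20 min, against 10.95 and 11.06 at 0 min, so it fell by 7.48, a size that is uncertain near the low end of the scale. ADR1, another activator of genes for non-fermentable carbon sources, fell by 5.36, to 6.19 and 7.62 at 20 min, against 12.08 and 12.46 at 0 min. MIG2, a repressor induced by glucose, rose in both strains by replicates 1 and 3, while replicate 2 as labelled ran the other way. In null cells it had 12.84 and 12.91 at 20 min, against 3.43 and 4.29 at 0 min. Reference cells had 11.05 and 11.38 at 20 min, against 2.82 and 2.10 at 0 min, near the lowest value, so no size is given. Its difference between the responses did not pass (adjusted p = 0.684). MKS1, a negative regulator of the retrograde pathway that controls CIT2 and the early cycle genes when respiration is impaired, rose by 1.77 in the reference strain and did not pass in the null strain (-0.62, adjusted p = 0.137), where it fell by 1.28 with the values as deposited (adjusted p = 0.0218), and the difference of -2.39 passed (adjusted p = 0.00256). HAP4, the activating subunit of the complex that drives respiratory genes, was named after its values were seen, as were the other regulators outside the naming rule. It had 11.59 and 11.98 at 20 min in the reference strain, against 12.75 and 12.82 at 0 min, and fell by 1.00 (SE 0.28, limma adjusted p = 0.0219), while its change of -0.73 in the null strain did not pass (adjusted p = 0.116) and neither did the difference between the responses (0.27, adjusted p = 0.582). The fall of HAP4 was not called with arrays centred on their medians (-0.59, adjusted p = 0.0813) or without replicate 1 or 3 at 0 min or replicate 1 at 20 min of the reference strain (-1.04 to -0.81, adjusted p = 0.0705 to 0.107), and RTG1 did not pass with the values as deposited (0.71, adjusted p = 0.14).

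The cycle genes shared their pattern over the 8 arrays with each other and with other genes. The correlation of each gene with the mean of the other 9 ran from 0.8635 for IDH2 and 0.9492 for IDH1 to 0.9994 for FUM1. Of 5089 other genes with a mean above 6, the 5 most like the mean of the cycle genes were QCR2 (r = 0.9994), ADH2 (0.9993), MDH2 (0.9987), ACH1 (0.9985) and PDA1 (0.9985). QCR2 encodes a core subunit of the cytochrome bc1 complex of the respiratory chain, ADH2 the alcohol dehydrogenase that oxidizes ethanol, ACH1 a mitochondrial CoA transferase acting on acetate and PDA1 a subunit of pyruvate dehydrogenase. A pattern of this kind was not confined to the cycle genes, since 172 of the 5089 had r above 0.99. The correlations are across 8 arrays that fall into the low reference arrays at 20 min and the rest, so they describe mainly this one contrast. Similar patterns came with different sizes, as QCR2 fell by 2.88 in the reference strain and PDA1 by 1.28.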

How the data were processed

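RNA was measured on Affymetrix yeast arrays from biotin-labelled cRNA, per the labels' protocols. The authors deposited log2 intensities, 1 for each probe set on each array. For the software behind them no name is given in the sources used here. Of 10928 probe sets, 5498 matched a gene of S. cerevisiae by gene identifier (probe annotation of 2016), and the probe set of highest mean was kept for each of 5449 genes. Array medians ranged from 10.34 to 10.90, so values were quantile normalized over the 12 arrays. Group means were fitted to replicates 1 and 3 (8 arrays) by limma 3.58.1 (R 4.3.3) with moderated variances. The p-values were adjusted by Benjamini-Hochberg across all genes, and a gene was called at an adjusted p under 0.05. They measure only the spread between arrays labelled as biological replicates. SE and 95% intervals come from the fit. It was tried on simulated data for the change over time in the reference strain alone, which did not check the SE or the intervals. The number of arrays limits the precision.

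All 10 members of the pathway, the other gene lists and the use of replicates 1 and 3 were chosen with earlier results of these data known. Named genes were the 10 members, the remaining cycle genes, all measured isozymes, the 3 genes with the largest change in the reference strain and the 3 with the largest difference between the responses in each of the lists of feeding enzymes and regulators, and the 5 genes of most similar pattern. Alternatives varied which arrays were used, the normalization, the probe set rule, the filter on dim genes, the variance model, a replicate block and the threshold. No promoter or protein sequence was used here. Plots used matplotlib 3.10.9 (Python 3.11.15).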

Additional observations from a re-analysis of the deposited data

Results flagged for a closer look

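For 9 of the 10 cycle genes the response to the pulse differed between the strains by the direct test of that difference in limma. The differences, null minus reference strain on the log2 scale, were 4.18 for KGD1, 3.94 for KGD2, 3.66 for CIT1, 3.15 for LSC1, 3.09 for MDH1, 2.71 for LPD1, 2.56 for FUM1, 2.39 for ACO1 and 1.60 for IDH1. For IDH2 the difference did not pass. Groups of 3 arrays are too small for the test for outlying samples.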

How the results depend on the processing

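Directions of called values for the 10 cycle genes were kept in every alternative that was run. No alternative changed the label of an array, so this does not test the time labels. With all 12 arrays as labelled the count of genes called was 0 over time in the reference strain, 0 over time in the null strain, 0 for the difference between the responses and 0 between strains at 20 min, and the median changes were -1.01 in the reference strain, 0.97 for the difference between the responses, 0.86 between strains at 0 min and 1.89 between strains at 20 min. With array weights on the 12 arrays the median between strains at 0 min was 0.02. Values as deposited gave medians of 3.07 for the difference between the responses and 3.02 between strains at 20 min. Arrays centred on their medians gave 0.16 in the null strain, -2.71 in the reference strain and 0.06 between strains at 0 min, with 0 genes called in the null strain. The null strain also had 0 genes called with its 4 arrays alone and at an adjusted p under 0.01. Leaving out each of the 8 arrays gave 0 to 1 genes called and medians of -0.26 to 0.01 in the null strain, 9 to 10 called and medians of 2.77 to 2.81 between strains at 20 min, and medians of -0.30 to 0.01 between strains at 0 min. It also gave 10 called and medians of -3.10 to -3.02 in the reference strain, and 9 called and medians of 2.76 to 3.04 for the difference between the responses. Outside the 10 genes, YHM2 changed sign in the reference strain with arrays centred on their medians (0.08), and with all 12 arrays as labelled so did AGC1 in the reference strain (0.02), HAP1 (-0.01) and RTG1 (-0.06) in the null strain and HAP1 in the difference between the responses (-0.02), none of these passing. Over all genes, 1501 were called in the null strain, against 0 with all 12 arrays as labelled, 564 with its 4 arrays alone, 500 at an adjusted p under 0.01 and 750 to 1338 without single arrays, and between strains at 0 min 70 were called, against 10 with the 4 arrays alone, 25 with 12 arrays, 138 with array weights, 41 as deposited, 111 with a robust variance trend, 44 with the replicate block, 22 at an adjusted p under 0.01 and 13 to 68 without single arrays. Arrays of different strains or times shared only a replicate number. In replicates 1 and 3, deviations from the group means correlated between arrays of the same number at 0.078 for the reference strain and -0.306 for the null strain. With the replicate block the counts called were 1 for the null strain, 10 for the reference strain, 9 for the difference between the responses, 0 between strains at 0 min and 10 between strains at 20 min, and no call of the 10 genes changed. Outside the 10 genes the block ended 7 calls of the genes listed above and added 1. Those ended included SDH5, SDH6, PDX1 and RTG1 over time in the null strain and OSM1 in the difference between the responses. The call of MIG1 between strains at 0 min was also lost. The call added was HAP3, lower in the null strain (-0.71) at the edge of the threshold. Other than where an alternative used more or fewer arrays or a stricter threshold, the cause of these differences was not tested.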
